A study of Mus musculus with 6 samples.

Results

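The CCN family is a small set of secreted matricellular proteins, and its 5 members examined here are listed in the expression table under their older symbols *Cyr61* (CCN1), *Ctgf* (CCN2), *Nov* (CCN3), *Wisp1* (CCN4) and *Wisp2* (CCN5). They were taken by symbol from the 25140 genes of the table and not by a cut on their values, but with earlier results of these data known. Their mRNA was counted by poly(A) RNA-seq in 3 vehicle libraries and 3 TGFβ libraries. The cells were labelled as primary cardiac fibroblasts of the adult heart from C57BL/6 mice at passage 1, grown in DMEM with 25 mM glucose, held in 1% FBS for 16 h by the sample labels (the methods give a longer time), and then given vehicle or 10 ng/ml TGFβ for 24 h. The study's methods also name cardiac fibroblasts, while its results speak of MEFs, fibroblasts of mouse embryos. Neither age nor sex of the donor mice was given in the labels, and the replicates were described as biological without saying whether each came from its own animal, so p-values measure the spread between these libraries only. Both groups are cultured, passaged cells in low serum, so neither represents fibroblasts as they are in the heart.

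CCN proteins are built from cysteine-rich modules: an insulin-like growth factor binding protein (IGFBP) module, a von Willebrand factor type C repeat, a thrombospondin type I repeat and a cysteine knot at the C terminus, which CCN5 lacks. They have no catalytic activity of their own and act at the cell surface by binding integrins, heparan sulfate proteoglycans and LRP receptors, and by holding growth factors such as VEGF, BMP4 and TGFβ. In connective tissue, *Ctgf* and *Cyr61* are best known as early targets of TGFβ-SMAD, YAP-TEAD and MRTF-SRF signalling, and *Ctgf* is widely used as a marker of fibrosis. *Wisp1* and *Wisp2* were named as genes induced by WNT1, and *Nov* is often described as a counterweight to *Ctgf*.

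A feature that these 5 transcripts share can be read directly from their coding sequences. Genes outside the family were not searched for it. In each, the stretch that encodes the cysteine cluster of the IGFBP module carries 4 cysteine codons in the same spacing. The 24 bases are given here 5′ to 3′ from the GENCODE M21 transcripts, with the cysteine codons in capitals, to show the spacing that all 5 share.
Cyr61: ggcTGCggcTGCTGTaaggtcTGC
Ctgf: ggcTGCggcTGCTGCcgcgtcTGC
Nov: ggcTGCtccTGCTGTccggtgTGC
Wisp1: ggcTGTgaaTGCTGTaagataTGT
Wisp2: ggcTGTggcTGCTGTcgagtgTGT
These stretches cover codons 49 to 56 of *Cyr61* and of *Wisp2*, codons 52 to 59 of *Ctgf*, codons 54 to 61 of *Nov* and codons 72 to 79 of *Wisp1*. The coding sequence held 379 codons in *Cyr61*, 348 in *Ctgf*, 354 in *Nov*, 367 in *Wisp1* and only 251 in *Wisp2*. Cysteine codons numbered 38, 39, 40, 38 and 29 in the same order, between 10.0% and 11.6% of each reading frame.

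Sequence of read length tells the members apart in the annotated transcripts, though how reads were assigned is not given in the sources used here. Only exact matches along the transcripts were searched. No window of 75 bases, the length of a read, in the longest transcript of any member occurred in a transcript of another gene (0% for each of the 5), and the longest identical stretch between any pair of members was 28 bases, between *Ctgf* and *Nov*. In the mouse build GRCm38 (mm10, GENCODE M21), *Cyr61* (ENSMUSG00000028195) spans bases 145646976 to 145649981 of chromosome 3 (minus strand), and *Ctgf* (ENSMUSG00000019997) spans bases 24595442 to 24598683 of chromosome 10 (plus strand). *Nov* (ENSMUSG00000037362) and *Wisp1* (ENSMUSG00000005124) share chromosome 15, at bases 54745702 to 54754039 and 66891320 to 66923201 (both plus strand). *Wisp2* (ENSMUSG00000027656) spans bases 163820861 to 163833146 of chromosome 2 (plus strand). Each is a protein-coding gene in that annotation. The only gene span that overlaps a member is *Gm15270*, on the strand opposite to *Ctgf*, which held 163 counts over all libraries against 359320 for *Ctgf* (0.0454%).

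Depth was similar, at 29296570 to 31072338 counts a library with vehicle and 27851677 to 28894151 with TGFβ, though lower in every TGFβ library. The TMM scaling factors also lay apart, at 1.01 to 1.02 with vehicle and 0.967 to 0.996 with TGFβ. Error from counting was small beside the spread between libraries for all members. The count columns name the group but carry no replicate number, so libraries are called A, B and C here in the order of the table's columns, and no label ties libraries of the same letter across groups. Libraries of the same position nevertheless resembled each other in most marker sums. The fibroblast, endothelial and leukocyte sums rose from library A to B to C in both groups. The cardiomyocyte and mesothelial sums were highest in library A and lowest in library B of both groups. The smooth muscle and pericyte sums did not keep the same order. Whether libraries of the same position came from the same culture is not given in the sources used here. Replicates of a group differed by more than counting noise (chi-square per gene 7.95 to 27.1). Of the 8 fibroblast markers examined, each was detected. Their summed level was 34633 to 39766 CPM (a gene's counts scaled to a common library total with TMM factors) with vehicle and 38752 to 42293 CPM with TGFβ. Most of this sum came from the collagen genes *Col1a1* and *Col1a2*. The other 6, among them *Pdgfra* and *Tcf21*, were called lower with TGFβ (edgeR, adjusted p under 0.05), where 20.1% of all genes tested were. Markers of other cells of the heart had lower sums than the fibroblast markers. The 5 endothelial markers summed to 372 to 578 CPM with vehicle and 342 to 465 CPM with TGFβ, the 5 leukocyte markers to 39.5 to 54.1 and 37.1 to 54.1 CPM, the 5 mesothelial markers to 24.5 to 90.5 and 16.0 to 47.5 CPM, and the 5 cardiomyocyte markers to 38.1 to 59.3 and 27.1 to 40.2 CPM, with *Myh6*, *Actn2* and *Ryr2* below 1 CPM in every library. Most of the cardiomyocyte sum came from *Tnnt2* (means of 46.7 CPM with vehicle and 34.0 CPM with TGFβ), which did not pass the test. The smooth muscle markers ran from 139 to 161 CPM with vehicle and from 177 to 245 CPM with TGFβ. The pericyte markers ran from 224 to 255 CPM and from 115 to 142 CPM, so the smooth muscle and pericyte sums moved with the treatment. The pericyte sum held genes that went opposite ways, since *Notch3* fell from 207 to 57.3 CPM and *Cspg4* rose from 19.5 to 53.3 CPM, while the other 3 did not pass the test. Their part in the results below was not tested, and in bulk samples such as these fewer cells of a type and less RNA per cell cannot be told apart.

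With TGFβ the family split in its direction. *Ctgf* and *Wisp1* rose, *Nov* and *Wisp2* fell, and *Cyr61* did not pass the test. Thus 4 of the 5 members changed at an adjusted p under 0.05 (quasi-likelihood test of edgeR, Benjamini-Hochberg adjusted over all genes tested), where 40.7% of the 14334 genes tested did (5828 genes, 20.5% higher and 20.1% lower). The median log2 fold change of the 5 members was 0.21, that of *Cyr61*, beside -0.00129 over all genes tested. In the same 4 members no TGFβ library lay within the range of the vehicle libraries and the groups did not overlap, as was so for 53.3% of all genes tested.

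**Figure D1:**
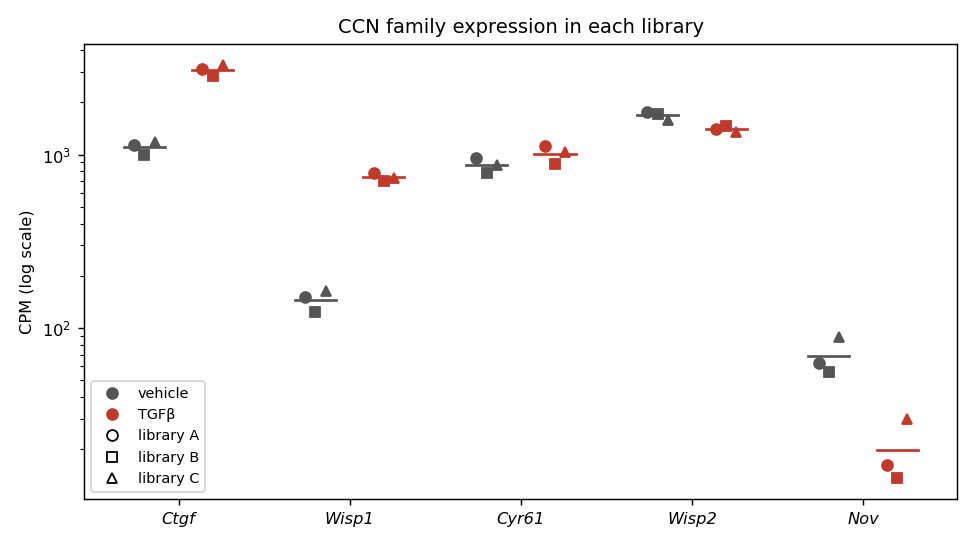
Expression of the 5 CCN family genes in CPM (y axis, log scale) in each of the 3 vehicle (grey) and 3 TGFβ (red) libraries, with marker shapes for libraries A, B and C and a line at each group mean. The groups are apart for *Ctgf*, *Wisp1*, *Wisp2* and *Nov* and overlap for *Cyr61*, and *Nov* has the widest spread within a group.

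*Ctgf*, the member most closely tied to fibrosis, was counted 36237, 29311 and 35145 times with vehicle and 85672, 78937 and 94018 times with TGFβ. Its levels were 1139, 988 and 1178 CPM in vehicle libraries A, B and C and 3132, 2827 and 3298 CPM in the TGFβ libraries. Every TGFβ library was thus well above the highest vehicle library, and within each group library C was highest and library B lowest. The group means were 1102 ± 100.2 CPM and 3085 ± 239 CPM (SD, n = 3 each), a 2.80-fold rise. The log2 fold change was 1.49 (SE 0.09, 95% confidence interval 1.28 to 1.69), with an adjusted p of 2.03e-05 in the edgeR fit. *Ctgf* ranked 189th among the 14334 genes tested by the size of its rise. Its level per kilobase of exon ranked 63rd of 14322 genes with vehicle and 19th with TGFβ.

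*Wisp1*, which binds decorin and biglycan in the matrix and is expressed in healing bone and scar tissue, had the largest rise of the family. It was counted 4815, 3651 and 4854 times in the vehicle libraries and 21454, 19686 and 20778 times in the TGFβ libraries, or 123 to 163 CPM against 705 to 784 CPM. The gap between the groups was many times the spread inside them, and the coefficient of variation was lower with TGFβ (5.50%) than with vehicle (14.0%). The log2 fold change was 2.34 (SE 0.10, 95% confidence interval 2.10 to 2.58; adjusted p of 7.81e-06 in the edgeR fit), the 73rd largest rise of all genes tested. Although *Wisp1* rose more than *Ctgf*, its level stayed below that of *Ctgf* in every library. Per kilobase of exon, *Ctgf* was 14.8-fold higher than *Wisp1* with vehicle and 8.11-fold higher with TGFβ.

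*Cyr61*, an angiogenic member that promotes adhesion and migration and can drive fibroblasts into senescence, moved little at 24 h. No other time was measured, so an earlier, passing change could not be seen. Its levels were 960, 785 and 876 CPM in the vehicle libraries and 1113, 882 and 1036 CPM in the TGFβ libraries. TGFβ library B lay between the vehicle libraries, so the groups overlapped. In each group library A was highest and library B lowest, and since no label pairs the libraries, differences between libraries of the same letter were not tested. The means were 874 ± 87.5 CPM and 1010 ± 117 CPM (SD, n = 3 each). The log2 fold change of 0.21 (SE 0.10) did not pass the test (edgeR, adjusted p = 0.14), and its 95% confidence interval of -0.03 to 0.45 corresponds to ratios of 0.98 to 1.36. A rise as large as that of *Ctgf* lies outside this interval. The call turned on a single library: without TGFβ library B the log2 fold change was 0.30 and passed (edgeR, adjusted p = 0.0479), whereas the other alternatives gave adjusted p values up to 0.381.

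*Wisp2*, which lacks the C-terminal knot and is known to restrain proliferation and the myofibroblast state, was abundant in every library. Its levels were 1753, 1721 and 1588 CPM with vehicle and 1400, 1457 and 1352 CPM with TGFβ. The groups were apart, and the spread inside them was the narrowest of the family, with a coefficient of variation of 5.19% with vehicle and 3.76% with TGFβ. The change was small: the group means (± SD, n = 3) were 1687 ± 87.6 CPM and then 1403 ± 52.8 CPM, which edgeR fitted as a log2 fold change of -0.27 (SE 0.06, 95% confidence interval -0.40 to -0.13) at an adjusted p of 0.00828.

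*Nov*, a regulator of cell fate that binds NOTCH1 and is known to oppose *Ctgf* in several fibrotic settings, had the largest fall. It was counted 2012, 1646 and 2650 times with vehicle and 442, 380 and 853 times with TGFβ, which gave 63.2, 55.5 and 88.8 CPM against 16.2, 13.6 and 29.9 CPM. The highest TGFβ library stayed below the lowest vehicle library, but library C was well above the other two in each group. The means were 69.2 ± 17.5 CPM and 19.9 ± 8.78 CPM (SD, n = 3 each), so vehicle cells held 3.48 times the level of TGFβ cells. The log2 fold change was -1.80 (SE 0.29, 95% confidence interval -2.48 to -1.11) at an adjusted p of 0.00227 in the edgeR fit, and it was the 154th largest fall among the 14334 genes tested.

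The spread of *Nov* between replicates was unlike that of the other members. Its biological coefficient of variation was 25.0%, beside 6.51% on the trend for genes of its abundance. This measure comes from the gene-wise dispersion that edgeR estimates and is not the spread used in the quasi-likelihood test. The same measure was 9.51% for *Cyr61*, 8.23% for *Ctgf*, 9.23% for *Wisp1* and 6.26% for *Wisp2*, all near their trend values of 7.31% to 7.85%. Leaving out TGFβ library C moved the log2 fold change of *Nov* to -2.22. Leaving out vehicle library C or TGFβ library B moved it to -1.58. Library C also had the highest sum of endothelial markers in each group, 578 CPM with vehicle and 465 CPM with TGFβ. The same held for leukocyte markers, 54.1 CPM in both, and for fibroblast markers, 39766 and 42293 CPM. These sums were higher in library B than in library A of each group, whereas *Nov* was lower in B than in A. The part of these cell types in the level of *Nov* was not tested.

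**Figure D2:**
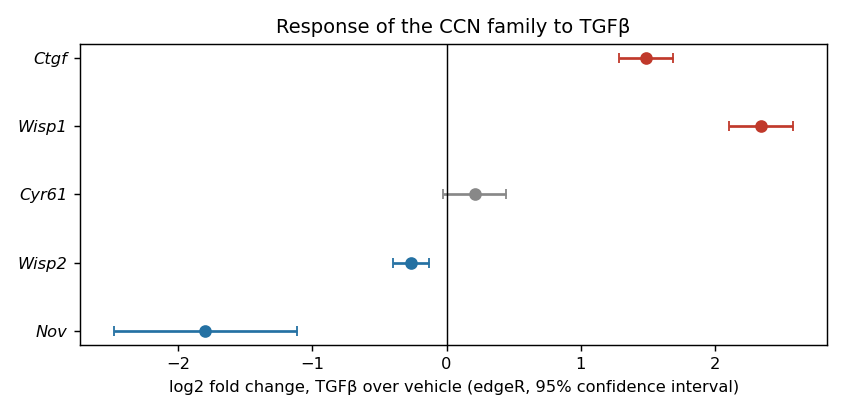
Log2 fold change of TGFβ over vehicle (x axis) for each CCN family gene, as the edgeR estimate (point) with its 95% confidence interval (bar), in red for genes called higher, blue for genes called lower and grey for *Cyr61*. The interval of *Cyr61* crosses 0 and that of *Nov*, from -2.48 to -1.11, is the widest.

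Levels per length of transcript show how far the balance between the members shifted. With vehicle the order per kilobase of exon was *Wisp2* at 877 ± 45.5, *Cyr61* at 433 ± 43.3, *Ctgf* at 385 ± 35.0, *Wisp1* at 26.2 ± 3.67 and *Nov* at 24.1 ± 6.08 CPM per kb (SD, n = 3 each). *Cyr61* and *Ctgf* overlapped in this order, as did *Wisp1* and *Nov*, and with the longest transcript as the length *Ctgf* (442 CPM per kb) came before *Cyr61* (433). With TGFβ *Ctgf* led at 1078 ± 83.5, ahead of *Wisp2* at 729 ± 27.4, *Cyr61* at 500.4 ± 58.2, *Wisp1* at 133 ± 7.31 and *Nov* at 6.93 ± 3.06 CPM per kb (SD, n = 3 each). No neighbours in this second order overlapped. *Wisp2* ranked 20th of 14322 genes per length with vehicle and 32nd with TGFβ, whereas *Nov* went from rank 1884 to rank 5471.

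The summed level of the 5 members examined was 1671 to 1834 CPM per kb in the vehicle libraries. In the TGFβ libraries it was 2314 to 2520 CPM per kb, a ratio of means of 1.40. *Ctgf* made up 20.7% to 23.8% of that sum with vehicle and 42.7% to 45.9% with TGFβ. The share of *Wisp2* went the other way, from 47.7% to 53.6% with vehicle down to 28.0% to 32.7% with TGFβ. *Cyr61* held 23.3% to 25.9% and then 18.9% to 21.9%, a smaller part of a sum that had grown, while its own level did not pass the test. *Wisp1* went from 1.32% to 1.69% up to 5.22% to 5.59%, and *Nov* from 1.16% to 1.79% down to 0.205% to 0.416%.

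**Figure D3:**
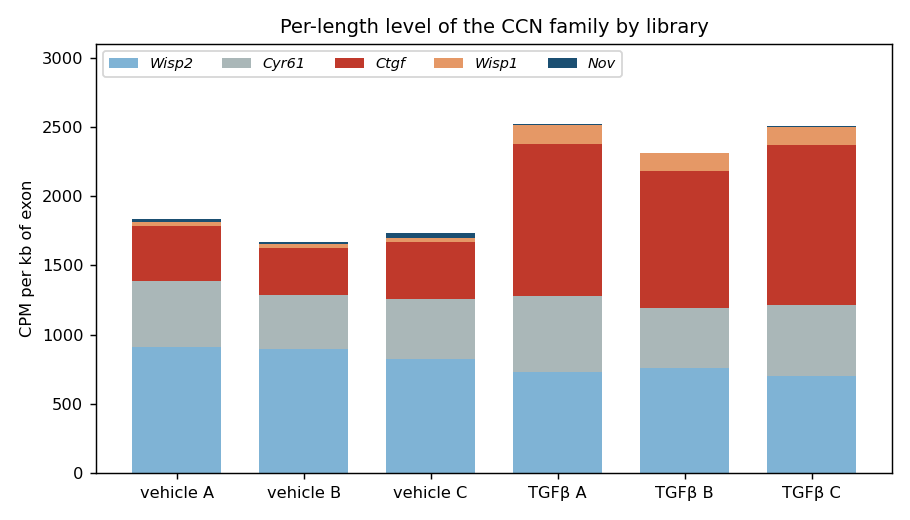
Stacked levels of the 5 CCN family genes in CPM per kb of exon (y axis) in each of the 3 vehicle and 3 TGFβ libraries (x axis). The *Ctgf* segment (red) grows in every TGFβ library while the *Wisp2* segment (light blue) shrinks, and *Nov* (dark blue) is a thin line at the top.

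Ratios between members inside a library do not depend on how libraries are scaled. *Ctgf* was 2.28-fold lower than *Wisp2* per kilobase with vehicle and 1.48-fold higher with TGFβ, so that their order turned over (mean log2 ratio -1.19 with vehicle and 0.56 with TGFβ). *Nov* and *Wisp1* were within a log2 ratio of -0.30 to 0.08 with vehicle, and with TGFβ *Wisp1* was 20.3-fold higher (log2 ratio of *Nov* to *Wisp1* -4.74 to -3.65). *Ctgf* and *Cyr61* were also close with vehicle (log2 ratio of *Cyr61* to *Ctgf* 0.08 to 0.26) and 2.16-fold apart with TGFβ. For each of the 10 pairs, a two-sided exact permutation test over libraries gave p = 0.1 (also 0.1 adjusted over the 10 pairs), the smallest that 3 libraries against 3 allow. The pairs share members, and every pair includes a member already called, so this outcome follows in part from those calls. The share of all gene pairs that would reach it was not counted.

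Several signalling pathways are known to act on CCN genes, and genes that report on them were taken from lists chosen with earlier results of these data known. Of 10 TGFβ-SMAD targets, 7 were called higher and 1 lower, where 20.5% of all genes tested were higher and 20.1% lower, and the median log2 fold change was 0.74. *Ltbp2*, a binding protein of the microfibrils, went from 230 ± 22.6 to 2005 ± 118 CPM (here and for the other list genes, mean ± SD of n = 3), a log2 fold change of 3.12 (SE 0.09). *Pmepa1*, a feedback inhibitor of SMAD signalling, rose by 1.55 (SE 0.07). *Junb*, an AP-1 subunit, was the target called lower, with a log2 fold change of -0.59 (SE 0.07). Of 10 MRTF-SRF targets, 8 were called higher (20.5% of all genes tested) and 2 did not pass the test, with a median of 0.70. *Cnn1*, which encodes calponin and is also one of the smooth muscle markers, went from 10.6 ± 1.54 CPM to 38.7 ± 6.95 CPM (log2 fold change 1.86, SE 0.15). *Acta2*, which encodes α-SMA, rose by 1.03 (SE 0.08) and *Tagln*, which encodes transgelin, by 0.97 (SE 0.08).

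The YAP-TEAD targets, of which *Cyr61* and *Ctgf* are the best known, went both ways, in shares not far from those of all genes tested. Of the 20 other genes of that list, 6 were called higher and 4 lower, where 20.5% and 20.1% of all genes tested were, and the median log2 fold change was -0.04. *Nt5e*, the ectonucleotidase CD73 (log2 fold change 1.28, SE 0.16), *Dock5*, a RAC activator (0.995, SE 0.06), and *Ankrd1*, a nuclear ankyrin repeat protein (0.97, SE 0.11), had the largest rises among the genes called. *Tgfb2*, a TGFβ ligand (-0.45, SE 0.09), *Asap1*, an ARF regulator (-0.44, SE 0.06), and *Gadd45a*, a stress response gene (-0.24, SE 0.06), had the largest falls among the genes called. *Igfbp3*, an IGF binding protein named here after its values were seen, had a lower estimate (-0.57, SE 0.33) that did not pass the test. The call of *Gadd45a* was lost without vehicle library B (adjusted p = 0.0593 by edgeR), TGFβ library A (0.0627) or TGFβ library B (0.0615), over a range of 0.00674 to 0.0627 for all alternatives.

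Of 12 WNT feedback targets, 7 had counts enough to be tested. Among these, 3 were called lower and 1 higher, where 40.7% of all genes tested were called and 20.1% were lower. The median log2 fold change was -0.51, the value of a gene that did not pass the test. The number of genes called ran from 4 to 6 over the alternatives of processing. *Axin2*, the standard readout of β-catenin activity, was scarce, at 1.17 ± 0.06 CPM and then 0.51 ± 0.20 CPM, and fell (log2 fold change -1.19, SE 0.27). *Apcdd1* and *Nkd1*, a membrane-bound and a cytoplasmic inhibitor of WNT signalling, also fell (-0.96, SE 0.10, and -0.91, SE 0.15), and *Nkd2*, a relative of *Nkd1*, rose (0.64, SE 0.06). *Wisp1*, named for its induction by WNT1, moved opposite to 3 of the 4 called genes of this list, and *Wisp2* in the same direction as these 3. Whether WNT signalling acted on either gene was not tested.

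The promoter sequences at hand covered only *Cyr61* among the 5 members, which is why it is shown alone. The promoters of *Ctgf*, *Nov*, *Wisp1* and *Wisp2* were not examined. *Cyr61* is a reference target of YAP-TEAD and is the member that did not pass the test here. The 250 bases before the transcript start (RefSeq, GRCm38.p6, chr3:145649986-145650235, minus strand, written 5′ to 3′ along the gene) are given with the match to the TEAD motif GGAATG, searched on both strands, in capitals.
Cyr61: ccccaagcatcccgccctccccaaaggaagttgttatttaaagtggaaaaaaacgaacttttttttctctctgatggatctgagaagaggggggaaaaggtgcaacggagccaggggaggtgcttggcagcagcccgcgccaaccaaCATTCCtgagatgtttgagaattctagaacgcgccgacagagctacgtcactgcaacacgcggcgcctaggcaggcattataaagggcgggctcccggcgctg
The single match begins 103 bases before the start, on the strand opposite to the gene. Such a match was held by 4153 of 32851 promoter windows of this length (12.6%). The lists were counted by gene with a match in any of its windows, which is not the same measure. By that count it was held by 5 of the 14 matched genes of the YAP-TEAD list, 4 of the 9 matched MRTF-SRF targets and 0 of the 4 matched TGFβ-SMAD targets. No AP-1 motif TGANTCA, no SMAD palindrome GTCTAGAC and no CArG box was in this window on either strand, letters that 6.75%, 0.167% and 1.47% of all windows held. A match is a description of the letters and not a measured binding site.

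The mRNAs of proteins through which CCN members act were counted in the same libraries. Of 19 receptors and binding partners, 6 were called higher and 4 lower, with a median log2 fold change of 0.04, a total not far from the 40.7% called of all genes tested. Among the 8 integrin subunits, 4 were called higher (20.5% of all genes tested) and 4 did not pass the test. Those called were *Itga5*, the fibronectin receptor subunit α5 (a mean of 181 CPM with vehicle and 401 CPM with TGFβ, log2 fold change 1.15, SE 0.10), and *Itgb5* (0.46), *Itgav* (0.39) and *Itgb1* (0.21), of which all but *Itga5* are named because they complete this count. *Itgav* and *Itgb5* form αvβ5, a receptor of CYR61. Of the 5 other receptors, 2 were called lower, where 20.1% of all genes tested were. These were *Sdc4*, the heparan sulfate proteoglycan syndecan-4 (-0.91, SE 0.13), and *Notch1*, the partner of NOV (-0.31), the latter named to complete the count.

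The 3 growth factors on the list, which CTGF is known to bind, were all called, beside 40.7% of all genes tested. *Vegfa* went from 136 ± 9.59 CPM to 280 ± 9.87 CPM (log2 fold change 1.04, SE 0.06). *Bmp4* moved the opposite way, from 84.2 ± 8.04 to 39.4 ± 2.90 CPM (-1.10, SE 0.08). *Tgfb1*, which encodes a TGFβ ligand, rose by 0.76 (SE 0.19). The *Tgfb1* call was lost without vehicle library A (adjusted p = 0.0518 by edgeR) or vehicle library B (0.0544), over a range of 0.0026 to 0.0544 for all alternatives. Of the 3 matrix partners, *Dcn*, which encodes decorin, fell (-0.52, SE 0.10), and the others did not pass the test. Of all genes tested, 20.1% were called lower.

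**Figure D4:**
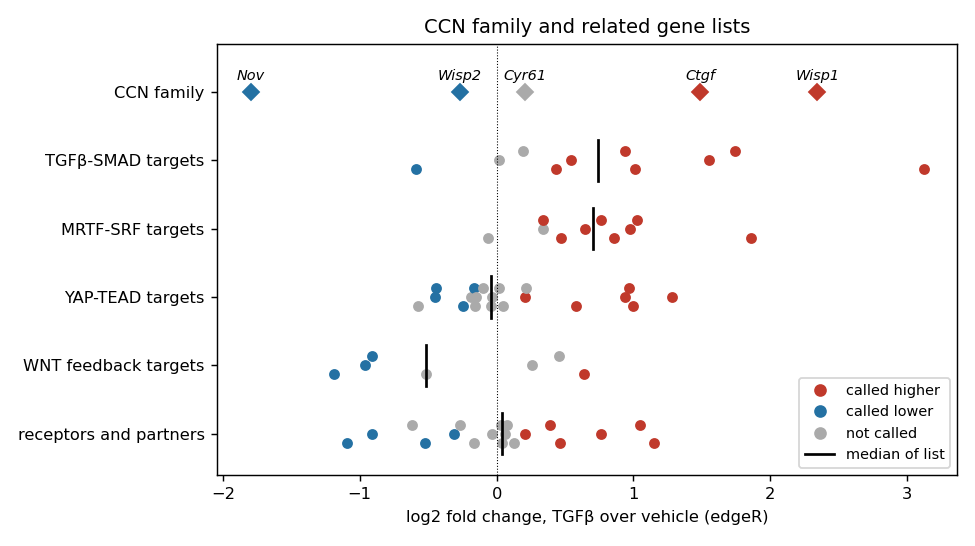
Log2 fold change of TGFβ over vehicle by edgeR (x axis) for the 5 CCN family genes (diamonds, named) and for the tested genes of 5 related lists (circles, 1 per gene, vertical position within a row has no meaning), in red for called higher, blue for called lower and grey for not called, with a black line at each list's median. The medians of the TGFβ-SMAD (0.74) and MRTF-SRF (0.70) lists lie to the right of 0, those of the YAP-TEAD list (-0.04) and of the receptors and partners (0.04) near 0, and that of the WNT feedback list (-0.51) to the left.

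Genes with the most similar profile were sought by expression across all 6 libraries, over 10373 genes at a mean level of 5 CPM or more, by the root mean square distance of log2 CPM after centring each gene on its own mean. Because the same libraries served for this choice and for the test, a fold change near that of the member follows from the choice. Nearest to *Ctgf* were *Ppp1r13l*, an inhibitor of p53 (distance 0.055), *Tnfrsf12a*, the TWEAK receptor (0.069), and *Cgref1* (0.075). Nearest to *Wisp1* were *Rflnb*, which encodes refilin B (0.116), *Tg*, the thyroglobulin gene (0.144), and *Plxna4*, a semaphorin co-receptor (0.157). *Tg* reached 11.8 CPM with TGFβ from 2.39 CPM with vehicle.

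For *Nov*, the pseudogene *Serpina3e-ps* (0.048), the serine protease inhibitor *Serpina3n* (0.091) and *Ch25h*, which encodes cholesterol 25-hydroxylase (0.116), came closest. *Serpina3n* fell from 456 to 136 CPM and *Ch25h* from 47.2 to 13.7 CPM. *Serpina3e-ps* belongs to a family of close copies and its counts are uncertain for that reason. Nearest to *Wisp2* were *Metrn*, *Zer1* and *Wbp1l*, at distances of 0.015 to 0.025. All 3 fell slightly, and the *Metrn* call was lost without vehicle library B (adjusted p = 0.0532 by edgeR, over a range of 0.00864 to 0.0532 for all alternatives). Nearest to *Cyr61* were *Hilpda*, *Exoc6* and the Y-linked helicase gene *Ddx3y*, at distances of 0.054 to 0.067, of which *Hilpda* and *Exoc6* did not pass the test either.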

How the data were processed

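Per the labels and the study's methods, the authors made stranded libraries from poly(A) RNA, read 75 bases from 1 end of each fragment, mapped to mm10 and tested with DESeq2. The aligner, the counting tool, the annotation and the use of strand in counting are not given in the sources used here. The deposited table holds whole-number read counts per gene and library without normalization, which were used, and the authors' mean, fold change and p-value columns, which were not. The number of per-sample columns not used is 0.

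Here the counts were filtered (filterByExpr), scaled by TMM and tested without covariates over 14334 genes by quasi-likelihood in edgeR 4.0.16 (R 4.3.3). SE was taken as the log2 fold change over the root of the F statistic. CPM per kb uses the union of exons. Alternatives were DESeq2 1.42.0, limma-voom (limma 3.58.1), 2 other scalings, 2 other filters, each library left out, an adjusted p of 0.01, and the longest transcript as the length. The steps were tested on simulated counts, in which fewer genes changed than were called here, each by more than *Cyr61* or *Wisp2* did. The members and lists were chosen with earlier results of these data known. Genes named are the members, the 3 called genes of each list with the highest and the 3 with the lowest log2 fold change, and the 3 nearest profiles of each member, except 1 gene that is not reported here.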

Additional observations from a re-analysis of the deposited data

How the results depend on the processing

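*Ctgf*, *Wisp1*, *Nov* and *Wisp2* kept their direction and their call under all 13 alternatives of scaling, tool, filter, threshold and library left out. With each library left out, their log2 fold changes ran from 1.41 to 1.54, from 2.24 to 2.43, from -2.22 to -1.58 and from -0.31 to -0.24. *Cyr61* stayed positive, from 0.13 to 0.30 with each library left out, and passed the threshold only without TGFβ library B. Of 559 fold changes recomputed for 43 genes chosen by the same rule, 0 reversed, 10 lost their call and 1 gained it. Among these genes, *Tgfb1*, *Gadd45a*, *Metrn* and *Ddx3y* lost their call at an adjusted p of 0.01. At an adjusted p of 0.01, 3595 genes were called in place of 5828, since that threshold is stricter. With the longest transcript as the length, the share of *Cyr61* among the 5 members was 22.6% with vehicle (24.8% by union of exons). It was 18.4% with TGFβ (20.4%), and the share of *Ctgf* with TGFβ was 45.7% (44.0%). These shares moved since the 2 lengths differ for *Ctgf*, *Wisp1* and *Wisp2*. No paired analysis was possible because the count columns carry no replicate numbers, and the order of columns is not a label that pairs cultures. With 3 libraries a group, small differences in genes that spread as *Cyr61* did may lie below what can be detected. *Wisp2*, with a narrower spread, passed the edgeR test at a log2 fold change of -0.27. Its biological coefficient of variation was 6.26%, beside 9.51% for *Cyr61*. Whether shared cultures added to that spread was not tested.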
